A study of Homo sapiens with 6 samples.

Results

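Immediate early genes are the first genes transcribed when a cell receives a growth factor, a mechanical stimulus or a stress, and 10 of them were followed here by symbol (FOS, FOSB, FOSL1, JUN, JUNB, EGR1, EGR2, EGR3, IER2 and ATF3) among the 37803 symbols found once in both deposited expression tables. Of the 10 genes, 6 (FOS, FOSL1, JUN, JUNB, IER2 and ATF3) passed a filter on low values that 13909 genes passed in all, and FOSB, EGR1, EGR2 and EGR3 did not. FOS passed only through the libraries in which it was high.

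The FOS and JUN families encode leucine zipper proteins that pair with each other to form AP-1, and ATF3 is a related zipper protein of the ATF/CREB group that is induced by stress. EGR1, EGR2 and EGR3 encode zinc finger factors, and IER2 encodes a nuclear protein of the early response. Transcription of these genes is switched on within minutes through MAP kinases, serum response factor (SRF), which binds the CArG box, and CREB/ATF factors, and it usually fades again as feedback phosphatases are made.

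RNA was sequenced from the human embryonic stem cell line H1 at day 2 of hematopoietic differentiation, when mesoderm is being formed. The groups were wild-type cells (WT) and cells with a SNAI1 deletion whose titles carry a leading number (SNAI1_1 and SNAI1_2), with 2 libraries each and 6 in all. The labels do not define the leading number. All groups received the same medium, mTeSR1 to which, per the labels, 40 ng/ml of activin A and 50 ng/ml of BMP4 were added. The study's methods give these doses exchanged and name Custom TeSR as the medium for differentiation. SNAI1 is a zinc finger repressor that drives the epithelial to mesenchymal transition, and the study made its knockout lines with CRISPR/Cas9 as frameshifts. A frameshift need not lower the RNA, so the SNAI1 level does not check the labels. It was 37.1 and 36.4 FPKM in WT, 51.6 and 47.8 in SNAI1_1, and 68.6 and 55.0 in SNAI1_2 (log2 difference of both knockout groups from WT 0.58, SE 0.074, limma adjusted p = 0.0046, and 0.052 without the first-table WT library).

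The values were FPKM, in which fragments are divided by the length of the transcript and by the mapped total, in 2 tables that each hold 1 library of every group. They are given below in the order first table, second table. The FPKM of a library summed to between 603399 and 633851 over all rows. Of the FPKM of the symbols found once in both tables, mitochondrial genes held 8.77 to 9.46% in the first table and 5.20 to 5.52% in the second. Of the mesoderm markers, MIXL1 was at 388 to 462 FPKM and APLNR at 217 to 621 FPKM, while the blood marker PTPRC was listed at 0 in every library.

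The sequence just upstream of the start site is shown for the 4 members that were called between the groups and have an entry (JUN, FOS, IER2 and JUNB). It is also shown for EGR1, in which CArG boxes were found close to the start. Each line gives 150 bases that end at the base before the start, 5′ to 3′ on the gene's own strand (RefSeq, GRCh38.p14). Capitals mark TGACG on either strand (CGTCA when read on the other), the core of a CREB/ATF site, as well as TGACATCA in JUN and the CArG boxes in EGR1. The windows are chr1:58784048-58784197 (minus strand), chr14:75278678-75278827 (plus), chr19:13150261-13150410 (plus), chr19:12791336-12791485 (plus) and chr5:138465329-138465478 (plus), in the order of the lines.
JUN: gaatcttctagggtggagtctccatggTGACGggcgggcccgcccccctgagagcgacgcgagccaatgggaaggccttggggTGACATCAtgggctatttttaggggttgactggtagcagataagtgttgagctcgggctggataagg
FOS: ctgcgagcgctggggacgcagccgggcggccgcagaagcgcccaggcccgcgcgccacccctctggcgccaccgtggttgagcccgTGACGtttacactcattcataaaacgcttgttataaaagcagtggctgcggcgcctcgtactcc
IER2: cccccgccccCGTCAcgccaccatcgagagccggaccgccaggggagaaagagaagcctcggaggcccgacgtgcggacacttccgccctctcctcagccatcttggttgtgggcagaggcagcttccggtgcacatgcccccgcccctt
JUNB: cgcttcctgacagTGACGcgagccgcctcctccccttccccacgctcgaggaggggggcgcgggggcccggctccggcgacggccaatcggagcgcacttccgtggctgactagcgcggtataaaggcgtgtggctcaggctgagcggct
EGR1: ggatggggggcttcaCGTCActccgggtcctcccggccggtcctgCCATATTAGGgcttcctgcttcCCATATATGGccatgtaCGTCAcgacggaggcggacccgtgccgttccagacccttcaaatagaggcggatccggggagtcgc

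Across the members, 8 of 10 had an entry in the promoter table, with 11 promoters between them (FOSL1 and EGR3 had none), each reaching from 250 bases before to 50 bases after the start. TGACG was found on either strand in 7 of the 11 promoters, 1 for each of JUN, JUNB, FOS, FOSB, EGR1, EGR2 and IER2, and in 24.6% of the 35116 promoters of the table. In FOS it lay at bases -64 to -60 and in FOSB at -60 to -56 from the start, and in JUN, JUNB and IER2 it lay between -140 and -119. The CArG box, searched on both strands, was found in EGR1 (bases -105 to -96 and -83 to -74) and EGR2 and in 1.29% of all promoters. Sites farther from the start were not searched, so its absence here does not mean that a gene lacks it.

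TGACATCA, a motif chosen after the sequences were read, was found in JUN and ATF3 and in 2.61% of all promoters. The AP-1 motif TGANTCA and the E-box CACCTG, of the kind that SNAI1 binds, were found in 0 of the 11 promoters and in 7.71% and 20.6% of all promoters, so these letters are not in these windows. TATAAA was found in 4 of the 11 (FOS, FOSB, JUNB and ATF3) and 7.33% of all, and the EGR motif GCGNGGGCG in 2 (EGR1 and EGR2) and 9.43% of all. JUNB, which fell in the knockout groups, and FOS, JUN and IER2, which rose, thus all held TGACG.

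At day 2 the members ranged from 0 to 73.0 FPKM, a scale that is per length and so allows genes to be compared. IER2 was the most abundant member in every library. It was followed in WT by ATF3 (13.8 and 13.3 FPKM), JUN (8.64 and 13.5) and JUNB (5.25 and 10.5), of which JUN overlapped both ATF3 and JUNB over the WT libraries, then by FOSL1 (1.09 and 2.97). FOS, FOSB and EGR1 were below 1 FPKM in both WT libraries, and their WT ranges overlapped. EGR2 and EGR3 stayed below 0.32 FPKM in all 6 libraries. The summed level of the 10 members was 60.2 and 83.6 FPKM in WT, 94.9 and 124.4 in SNAI1_1, and 95.2 and 143.0 in SNAI1_2, and IER2 made up 49.8 to 55.4% of it.

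**Figure D1:**
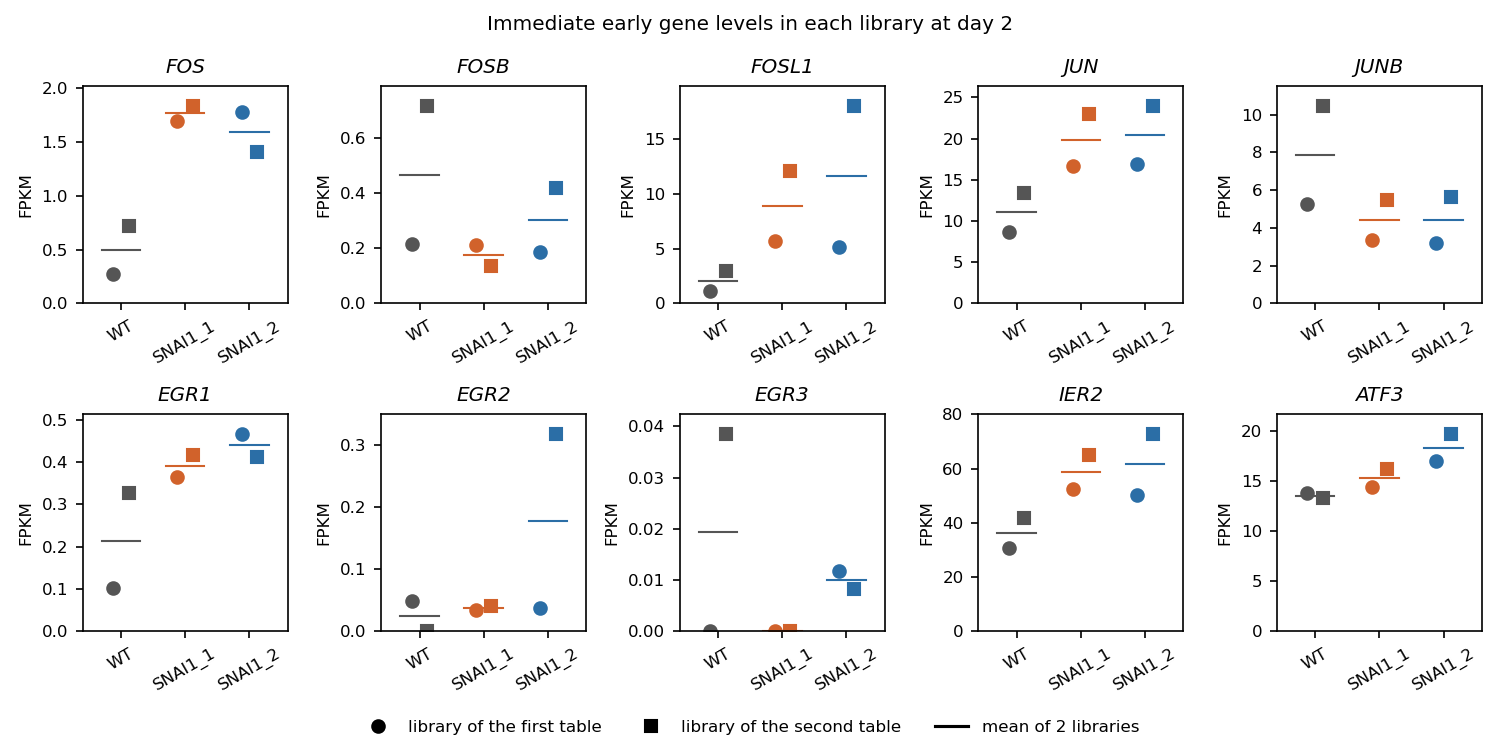
FPKM (linear axes that start at 0) of each of the 10 immediate early genes in WT, SNAI1_1 and SNAI1_2 cells at day 2, with circles for libraries of the first table, squares for the second and a line at the mean of the 2 libraries. FOS, FOSL1, JUN, IER2, ATF3 and EGR1 were higher in all 4 knockout libraries than in both WT libraries, and JUNB was lower than WT within each table but overlapped across tables.

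The comparison of knockout with WT cells asks how these genes stood when SNAI1 was missing during mesoderm induction. On average over both knockout groups, FOSL1, JUN, IER2 and FOS rose, JUNB fell, and ATF3 did not pass the test. The log2 differences of those called ran from -0.68 (JUNB) to 1.81 (FOSL1). At an adjusted p under 0.05, 31.3% of all genes tested were called in this contrast, 15.8% higher and 15.4% lower, and the median over all genes tested was -0.05. Among the 6 members tested, 4 were called higher and 1 lower, with a median difference of 0.77. Since the filter let FOS through on its knockout values, this count lends no weight to the list. RNA from whole cultures cannot tell apart fewer cells that transcribe a gene and less of its RNA per cell.

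FOSL1 (FRA-1), an AP-1 subunit that outlasts FOS after a stimulus, had the largest difference among the members. It was at 1.09 and 2.97 FPKM in WT, 5.67 and 12.1 in SNAI1_1, and 5.18 and 18.0 in SNAI1_2. All 4 knockout libraries were above both WT libraries, and within a table it was 5.21 and 4.07 times WT in SNAI1_1 and 4.76 and 6.07 times WT in SNAI1_2. The log2 difference was 1.81 (SE 0.17, 95% interval 1.37 to 2.24, limma adjusted p = 0.0018), which placed it at rank 190 from the highest among the 13909 genes. FOSL1 also differed between the tables, and the second table was 2.73 times the first in WT, 2.14 times in SNAI1_1 and 3.49 times in SNAI1_2.

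FOS, the founding subunit of the family, was at 0.275 and 0.720 FPKM in WT, 1.70 and 1.84 in SNAI1_1, and 1.78 and 1.41 in SNAI1_2. The groups did not overlap. In the first table the knockout libraries were 6.18 and 6.47 times WT, and in the second they were 2.56 and 1.95 times WT. The log2 difference was 0.85 (SE 0.18, interval 0.39 to 1.32, adjusted p = 0.022 by limma), and the call was less firm than that of FOSL1. It was lost without the first-table WT library (difference 0.60, limma adjusted p = 0.13), without either SNAI1_1 library (limma adjusted p = 0.069 and 0.064) and without the first-table SNAI1_2 library (limma adjusted p = 0.059).

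FOSB and FOSL2 complete the family. FOSB was at 0.215 and 0.715 FPKM in WT, 0.212 and 0.137 in SNAI1_1, and 0.187 and 0.418 in SNAI1_2, so that it overlapped between groups and stayed under the filter. FOSL2, a relative that is not one of the 10 genes, was at 0.739 and 1.20 FPKM in WT, 3.36 and 4.05 in SNAI1_1, and 3.33 and 4.62 in SNAI1_2 (log2 difference 1.30, SE 0.12, limma adjusted p = 0.0015). Like FOS, it passed the filter only through the knockout libraries. The FOS family as a whole summed to 2.32 and 5.61 FPKM in WT, 10.9 and 18.1 in SNAI1_1, and 10.5 and 24.5 in SNAI1_2.

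Within that sum FOSL1 held 47.0 and 53.0% in WT, 51.8 and 66.8% in SNAI1_1, and 49.4 and 73.7% in SNAI1_2, with overlap between groups. FOSB held 9.27 and 12.8% in WT and 0.753 to 1.94% in the 4 knockout libraries. In FPKM FOSB itself overlapped between groups, while the sum of the family was larger in every knockout library than in WT. These shares were compared as a description, with no test.

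**Figure D2:**
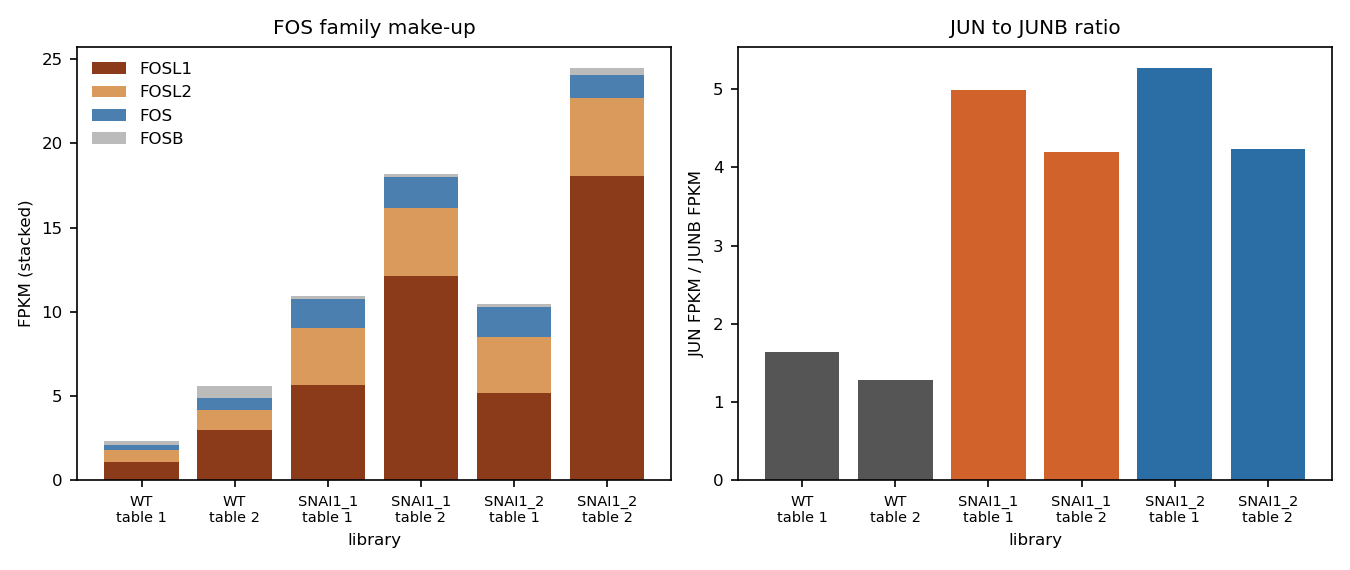
Left, stacked FPKM of FOSL1, FOSL2, FOS and FOSB in each library. Right, ratio of JUN to JUNB FPKM in each library, which was 1.65 and 1.29 in WT and 4.20 to 5.27 in the knockout libraries.

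JUN and JUNB, AP-1 partners of which JUNB often opposes JUN on shared targets, moved in opposite directions. JUN was at 8.64 and 13.5 FPKM in WT, 16.6 and 23.0 in SNAI1_1, and 17.0 and 24.0 in SNAI1_2. The groups did not overlap and the ratios to WT of the same table were narrow, from 1.71 to 1.96. The log2 difference was 0.82 (SE 0.072, interval 0.64 to 1.003, limma adjusted p = 0.0014).

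JUNB was at 5.25 and 10.5 FPKM in WT, 3.34 and 5.47 in SNAI1_1, and 3.22 and 5.66 in SNAI1_2. It was lower than WT within each table, at 0.635 and 0.613 times WT in the first and 0.523 and 0.541 times in the second, although the second-table knockout libraries lay just above the first-table WT library. The log2 difference was -0.68 (SE 0.11, interval -0.95 to -0.40, adjusted p = 0.0092 by limma), rank 643 from the lowest. The call was lost without the second-table WT library (difference -0.55, adjusted p = 0.092 by limma).

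Exons of JUNB overlap those of HOOK2 on the opposite strand (GENCODE 29), and strand use in the counting is not given in the sources used here, so reads of the pair may have been shared. HOOK2 was at 20.6 and 26.1 FPKM in WT, 26.5 and 35.0 in SNAI1_1, and 28.3 and 40.5 in SNAI1_2, higher where JUNB was lower. The JUN to JUNB ratio was 1.65 and 1.29 in WT, 4.98 and 4.20 in SNAI1_1, and 5.27 and 4.24 in SNAI1_2. JUND, the JUN gene that is present in most resting cells, held 80.1 to 89.8% of the JUN family's summed FPKM and was not called (81.1 to 251.1 FPKM, log2 difference 0.18, limma adjusted p = 0.17).

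IER2 was at 30.8 and 41.6 FPKM in WT, 52.6 and 65.1 in SNAI1_1, and 50.4 and 73.0 in SNAI1_2. All 4 knockout libraries were above both WT libraries, by 1.57 to 1.75 times within a table. The log2 difference was 0.72 (SE 0.065, interval 0.56 to 0.88, limma adjusted p = 0.0015). An antisense gene whose exons overlap IER2 (AC011446.2) was at no more than 0.923 FPKM in any library.

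ATF3 was at 13.8 and 13.3 FPKM in WT, 14.4 and 16.2 in SNAI1_1, and 17.0 and 19.8 in SNAI1_2. The groups did not overlap, but the lowest knockout library was 1.04 times WT of its table. Its difference of 0.29 (SE 0.085, interval 0.072 to 0.50) missed the threshold (adjusted p = 0.055 by limma) and passed it under quantile normalization (adjusted p = 0.047), median-ratio scaling (0.041) and a filter at a mean of 5 FPKM (0.046). Without the second-table WT library the difference was 0.17 (limma adjusted p = 0.31).

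Of the EGR genes, EGR1 was at 0.103 and 0.327 FPKM in WT, 0.365 and 0.417 in SNAI1_1, and 0.468 and 0.411 in SNAI1_2. All 4 knockout libraries were above both WT libraries, by 3.55 and 4.56 times in the first table and 1.28 and 1.26 times in the second. EGR2 was below 0.05 FPKM except in the second-table SNAI1_2 library (0.319), and EGR3 was at most 0.0386 FPKM, listed at 0 in 3 of the 6 libraries. With no filter on low values, none of FOSB, EGR1, EGR2 and EGR3 was called (limma adjusted p from 0.26 to 0.66).

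In all, 6 of the 10 members (FOS, FOSL1, JUN, IER2, ATF3 and EGR1) were higher in all 4 knockout libraries than in both WT libraries and none was lower in all 4. Of all genes tested, 16.9% stood above in this way and 17.1% below. EGR1 was not among the genes tested, and FOS passed the filter on its knockout values. The count of members therefore cannot be measured against these shares and lends no weight to the list. On the log2(FPKM + 1) scale low values are compressed, and with a pseudocount of 10 in place of 1 the differences were 0.71 for FOSL1, 0.52 for JUN, -0.30 for JUNB and 0.15 for FOS.

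The calls of the members rested on comparing libraries within a table. With groups alone and no term for the table, 0 of the 6 members were called (limma adjusted p = 0.067 for FOS, 0.14 for FOSL1, 0.14 for JUN, 0.13 for IER2 and 0.36 for JUNB), against 1065 of the 13909 genes. That fit leaves in the difference between the tables, which was of like size in the groups for some members and not for others. In the second table JUN was at 1.38 to 1.56 times its first-table level, JUNB at 1.64 to 1.99 times and IER2 at 1.24 to 1.45 times in the 3 groups, whereas FOS was 2.62 times its first-table level in WT, 1.08 times in SNAI1_1 and 0.790 times in SNAI1_2. ATF3 was at 0.962, 1.13 and 1.16 times, and FOSB, which was not tested, at 3.33, 0.644 and 2.23 times.

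Both knockout groups gave similar values against the WT libraries that they share. In SNAI1_1 the log2 differences were 1.70 for FOSL1, 0.90 for FOS, 0.80 for JUN, 0.69 for IER2 and -0.68 for JUNB, all called, and 0.16 for ATF3, which was not (limma adjusted p = 0.28). In SNAI1_2 they were 1.91 for FOSL1, 0.80 for FOS, 0.84 for JUN, 0.74 for IER2, -0.68 for JUNB and 0.41 for ATF3, and all 6 were called (limma adjusted p = 0.035 for ATF3). The share of all genes called was 23.9% in SNAI1_1 and 25.5% in SNAI1_2. When each library was left out in turn, 2 to 5 members were called in SNAI1_1 and 3 to 4 in SNAI1_2. In SNAI1_1 the count was 2 without its first-table library and 3 without its second-table library or either WT library. In SNAI1_2 it was 3 without either of its own libraries or either WT library.

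Set directly against each other, the knockout groups differed by limma in 0 of the 6 members and 0% of all genes at the adjusted threshold, while 521 genes had an unadjusted p under 0.05, none of them one of the 6. The difference of SNAI1_2 from SNAI1_1 was -0.10 for FOS (95% interval -0.63 to 0.44), 0.21 for FOSL1 (-0.29 to 0.71), 0.04 for JUN (-0.17 to 0.25) and 0.05 for IER2 (-0.14 to 0.24). For JUNB it was 0.00029 (-0.32 to 0.32). ATF3 came nearest to a difference, at 0.25 (-0.00089 to 0.50, unadjusted p = 0.051 by limma).

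**Figure D3:**
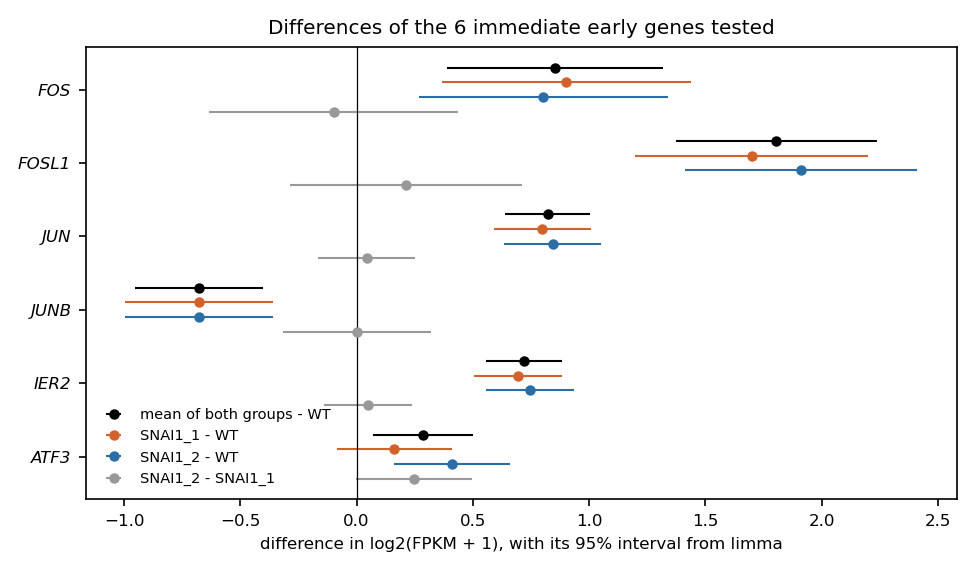
Differences in log2(FPKM + 1) of the 6 immediate early genes tested, with 95% intervals from limma, for both knockout groups averaged, each group against WT, and SNAI1_2 against SNAI1_1. FOS, FOSL1, JUN and IER2 lie to the right of 0 and JUNB to the left in the contrasts with WT, and all 6 intervals between the knockout groups include 0.

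Genes that act with the members, before them or after them, and contractile genes linked to SRF, were read from lists chosen with earlier results known. Each count stands against the 15.8% higher and 15.4% lower over all genes tested. Of 9 tested zipper partners of AP-1, 5 rose and 0 fell, and 3 were called when any library other than the first-table SNAI1_2 library was left out. FOSL2 is among the 5 and passed the filter through its knockout values, as LIF and CRYAB did in the lists given later. They were FOSL2, MAFK (1.15 on the log2 scale), MAFF (0.81) and MAFG, small zipper proteins, and JDP2 (0.45), a repressor that pairs with JUN. With no term for the table, FOSL2 alone was still called. JDP2 was among those that lost their call when a library was left out. Of the EGR corepressors, NAB1 rose (0.53, limma adjusted p = 0.086 without the first-table WT library) and NAB2 did not pass the test, while EGR4 was under the filter.

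Other early response genes were called in both directions. Of 35 tested, 8 rose and 6 fell, with a median difference of -0.09. With no block, 4 were called higher and 0 lower, and the count was 5 higher and 4 lower without the first-table WT library, 5 and 2 without the second-table WT library, and 5 and 6 without the first-table SNAI1_1 library. CYR61 and CTGF, secreted matrix proteins of the early response, rose most. CYR61 was at 7.76 and 6.96 FPKM in WT and 62.8 to 89.8 FPKM in the knockout libraries (log2 difference 3.10, SE 0.15, limma adjusted p = 0.00028). CTGF was at 9.26 and 7.06 FPKM in WT and 45.0 to 64.5 in the knockout libraries (2.53, SE 0.18, limma adjusted p = 0.00073). HBEGF, a ligand of the EGF receptor (1.30), and KLF10 (0.86) rose as well. Of the 6 that fell, GADD45G (-0.80) and NFKBIA (-0.59) moved most, and MYC, itself an early response gene, moved least (-0.35). The calls of all 6 were lost with no term for the table.

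Upstream of the members, 3 of 20 tested kinases and factors rose and 2 fell, a share near that of all genes tested. MKL1, the actin-regulated partner of SRF, rose by 0.75 and SRF by 0.40 on the log2 scale, while ELK3, an SRF partner regulated by ERK, fell by 0.53 and MAPK8 (JNK1), a kinase of JUN, fell by 0.51. Without the first-table WT library 1 rose and 0 fell, and without the second-table WT library 3 rose and 0 fell. Of 13 feedback genes of ERK signaling, 4 rose and 2 fell. That count was 1 and 1 without the first-table WT library, 1 and 0 without the second-table WT library, 1 and 2 without the second-table SNAI1_2 library, and 2 and 2 without the first-table SNAI1_1 library. DUSP6, an ERK phosphatase, was 0.77 higher but lost its call without either WT library and without either SNAI1_2 library (limma adjusted p from 0.080 to 0.27). DUSP14 rose by 0.65, and SPRY1 and DUSP10 fell by 0.68 and 0.66. MKL1 alone of these 8 genes kept its call whichever library was left out. Without the first-table WT library SRF, ELK3, MAPK8, DUSP10 and DUSP14 were no longer called (limma adjusted p from 0.078 to 0.12), and without the second-table WT library ELK3, MAPK8, DUSP10, DUSP14 and SPRY1 were not (0.053 to 0.088). SRF was also lost without either SNAI1_2 library, and DUSP14 without the first-table SNAI1_1 or the second-table SNAI1_2 library. None of the calls named in these sentences on kinases and feedback genes held with no term for the table.

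Among contractile genes, listed as targets of SRF and not of the members, 13 of 17 rose and 0 fell, with a median of 0.72. They included ACTA1, an alpha-actin of muscle, at 2.81 and 5.67 FPKM in WT and 68.9 to 134.7 in the knockout libraries, ACTG2 (3.36 on the log2 scale), TAGLN (2.05) and MYL9 (1.03). Of 12 tested targets linked to AP-1, 6 rose and 0 fell, with a median of 0.38. SPP1, a secreted matrix protein (2.14 on the log2 scale), VEGFA, a growth factor of vessels (0.87), and HMOX1 (0.78, adjusted p = 0.0502 by limma without the first-table WT library) rose, whereas PLAU, PLAUR, MMP9, CD44, TIMP1 and IL11 did not pass the test. IL11 lay below both WT libraries in every knockout library (log2 difference -0.60, limma adjusted p = 0.066). With both knockout groups as 1 group, 7 of the AP-1 targets were called higher and 1 lower. With no term for the table, 8 of the 17 contractile genes and 3 of the 12 AP-1 targets were still called higher.

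**Figure D4:**
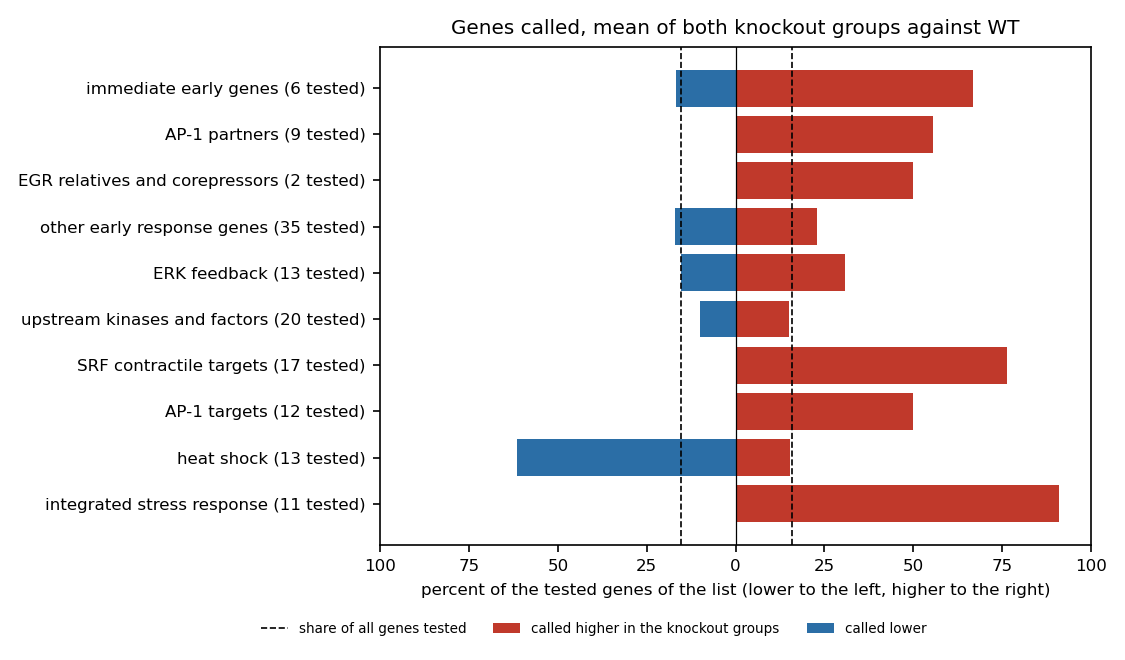
Percent of the tested genes of each list called higher (right of 0) and lower (left of 0) on average over both knockout groups, with dashed lines at the shares over all genes tested (15.8% higher, 15.4% lower). No gene of the AP-1 partner, EGR relative, contractile, AP-1 target or integrated stress response lists was called lower, and 8 of 13 heat shock genes were.

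Stress genes and markers of other cells moved in the same libraries, and their part in the differences of the members was not tested. Of 11 genes of the integrated stress response, in which ATF3 itself is a target of ATF4, 10 rose and 0 fell (median 0.64), with CHAC1 at 2.12, DDIT4 at 2.03, ASNS at 1.31 and TRIB3 at 0.996, while HSPA5, the chaperone of the endoplasmic reticulum, was at 0.03 (limma adjusted p = 0.59). With no term for the table, 4 of the 11 were still called, and 6 were called without the first-table WT library and 4 without the second-table WT library. Of 13 tested heat shock genes, 2 rose and 8 fell (median -0.25). Leaving out any 1 library gave 0 or 1 called higher and 2 to 5 lower, with the fewest, 2, without the second-table WT library. BAG3, a cofactor of HSP70, fell by 1.08 on the log2 scale, HSPH1 by 0.42 and HSPB1 by 0.40, and CRYAB was 0.62 higher. HSPH1 kept its call only without the first-table WT library and CRYAB only without the first-table SNAI1_2 library when libraries were left out in turn. Without the block, BAG3 alone of the 13 was called.

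Of 5 mesoderm markers, T rose (2.72), EOMES (-0.70), MESP1 (-0.43) and APLNR (-1.27) fell. MESP1 was not called without either WT library, and the summed level of the 5 was 1329 to 1350 FPKM in WT and 978 to 1074 in the knockout libraries. Of 3 pluripotent cell markers, NANOG (1.14, not called without the first-table WT library) and POU5F1 (0.57) rose, and SOX2 did not pass the test. The sum of the 3 was 492 to 638 FPKM in WT and 695 to 1036 in the knockout libraries. Endoderm markers (1 of 4 rose, 2 fell) summed to 2819 to 3334 FPKM in WT and 1267 to 1922 in the knockout libraries, most of it CER1 (2550.1 to 3262 FPKM in WT and 977 to 1797 in the knockout libraries), while SOX17 rose (0.63). SOX17 was not called without the first-table WT library, either SNAI1_1 library or the first-table SNAI1_2 library, and CER1 was not called without the second-table WT library. The 6 amnion and trophoblast markers summed to 28.5 to 44.0 FPKM in WT and 27.7 to 49.6 in the knockout libraries. These sums hide opposite changes in the 2 tested. TFAP2A rose (1.82), from 3.22 and 5.36 FPKM in WT to 14.3 to 24.1 in the knockout libraries. GATA3 fell (-0.87), from 23.1 and 37.3 FPKM in WT to 11.6 to 24.0 in the knockout libraries, with overlap across tables. The 3 neural markers (1 tested, NES, which rose but not without the second-table WT library) summed to 76.5 to 87.1 FPKM in WT and 96.9 to 123.7 in the knockout libraries. Most of that sum was NES (75.2 and 84.7 FPKM in WT). PAX6, which was under the filter, went the other way, from 1.29 and 2.38 FPKM in WT to 0.0242 to 0.184 in the knockout libraries. Endothelial and blood markers summed to 1.60 to 1.69 FPKM in WT and 0.754 to 0.922 in the knockout libraries, with 0 of 5 above the filter. Most of the WT sum was CD34, at 1.15 and 1.11 FPKM in WT and 0.0423 to 0.201 in the knockout libraries. SPN went the other way, from 0.350 and 0.225 FPKM in WT to 0.399 to 0.613, and CDH5 and PECAM1 overlapped between groups. CGA, CGB5 and SOX1 were listed at 0 in both WT libraries. With no term for the table, T, APLNR, EOMES, NANOG and TFAP2A were still called. The calls of MESP1, POU5F1, SOX17, CER1, FOXA2 (-0.54), GATA3 and NES were lost in that fit.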

How the data were processed

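H1 cells without or with SNAI1 deletion were profiled by RNA-seq at day 2 (6 libraries, 2 per group, TruSeq kit, 2 ug of total RNA each). The authors deposited FPKM values per gene symbol in 2 tables (38100 and 58324 rows). The second names the unit in a heading row and the first does not. The submitters' processing notes list BWA, Bowtie, RSEM and hg19 with no role. Other steps are not given in the sources used here. FPKM carries no read totals, so the depth is unknown and counting error cannot be given. The 94 and 340 symbols listed more than once in the first and second table were left out, and 0 per-sample columns were unused.

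Genes with a mean of at least 1 FPKM were tested on log2(FPKM + 1) with limma (version 3.58.1, R 4.3.3), with 3 group means, the table as a block and a mean-variance trend (2 residual and 3.34 prior degrees of freedom, two-sided, Benjamini-Hochberg over all genes tested, threshold 0.05). The pairing comes from the shared table. The tables list different numbers of genes, and whether they were normalized together is not given in the sources used here. Differences between tables correlated between groups at r = 0.616, 0.666 and 0.676 (over genes, which are no replicates). The labels do not say that libraries came from separate cultures, so p-values measure only the spread between these samples. The scripts were tested on simulated data.

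Members and lists were chosen with earlier results of these data known. Named genes are the 10 members, SNAI1 and, for each other list, up to 4 genes with the largest difference among those called and moved 1 way in all 4 within-table differences. A single gene that the rule names is not reported here. MAFG, MYC, GADD45G, NFKBIA, IL11, HSPA5, PAX6, CD34, SPN, CDH5, PECAM1, JUND, HOOK2 and AC011446.2 were added after their values were seen. So were genes named only as counted. The alternatives left out the block or the filter, set the pseudocount to 0.1 or 10 or the filter to 5 FPKM, or used quantile normalization, median-ratio scaling, no trend, both knockout groups as 1, each library left out and, chosen after seeing the data, equal library means. Promoters came from RefSeq (GRCh38.p14).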

Additional observations from a re-analysis of the deposited data

How the results depend on the processing

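Of 95 alternative values of the 6 members' differences, 80 stayed on their side of the threshold with their direction, 12 lost the call, 3 gained it (ATF3) and 0 reversed. Of 732 for 46 other named genes, 639 did so, 93 lost the call and 0 reversed, and 22 of the 46 were still called without the replicate block. Without the replicate block, 0 members were called in each contrast with WT, and 1065 genes were called for both knockout groups (71.9% of them higher, against 50.6% with the block), 576 for SNAI1_1 and 698 for SNAI1_2. With no filter, 3, 2 and 2 members and 2139, 1008 and 1216 genes were called for both groups, SNAI1_1 and SNAI1_2, and FOS (limma adjusted p = 0.0997) and JUNB (0.054) lost their calls for both groups. Leaving out each library gave 4 to 5 members and 1728 to 2840 genes for both groups (the fewest without the second-table WT library), 2 to 5 members and 962 to 2379 genes for SNAI1_1, 3 to 4 members and 1135 to 2693 genes for SNAI1_2, and 0 members and 0 genes between the knockout groups. The cause of these losses was not tested. The fits with a library left out held fewer libraries. The fit with no filter tested more genes and also drew its mean-variance trend from them. Scaling moved the share of called genes that were higher to at most 57.6% (median-ratio) and at least 44.9% (equal library means), and no scaling moved the median of all genes by over 0.1. The fit had 2 residual degrees of freedom, and the depth is unknown.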
